A study of Mus musculus with 9 samples.

Results

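The 45 genes described here drive or mark the mammalian cell cycle, from the G1 cyclins through DNA replication to mitosis. They were chosen by symbol from the gene table of irradiated mouse small intestine, and all 45 were found among its 19360 genes. All 45 also passed the filter for testing, with 14199 genes in all. The samples were small sections of small intestine from 9 wild-type BALB/c mice, an inbred strain, taken 12 h after 9 Gy of total body irradiation (TBI), with poly(A) RNA read on a HiSeq. The TBI group (n = 3) was irradiated only. The 3pRNA + TBI group (n = 3) received 3pRNA, a double-stranded RNA with a 5'-triphosphate that activates the cytosolic receptor RIG-I, 24 h before irradiation. Mice of the 3pRNA + anti-IFNAR1 + TBI group (n = 3), called blockade below, were given 3pRNA in the same way and, 48 h before irradiation, an antibody that blocks the type I interferon receptor chain IFNAR1. All 9 mice were irradiated and no unirradiated group was analysed here, so the effect of irradiation itself on these genes cannot be read from the data. The study's methods give 3pRNA complexed with a carrier, and no group with the carrier alone, a control antibody or the antibody without 3pRNA was analysed here. Any effect of the carrier cannot be told apart from that of 3pRNA, nor one of the antibody itself from the loss of receptor signalling. The labels do not give the age or sex of the mice, and they do not say which segment of the small intestine was sampled.

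Cell division in the small intestine takes place in the crypts, where stem cells at the base and transit-amplifying cells above them supply the epithelium of the villi. A cell enters the cycle when D-type cyclins with their kinases inactivate the retinoblastoma proteins and free E2F factors, which switch on the genes of DNA replication. The MCM helicase is loaded on origins in G1 and fires in S phase, and a second wave of genes, driven by B-MYB and FOXM1 with the MuvB complex, is transcribed in G2 and mitosis. The anaphase-promoting complex then removes the mitotic cyclins. Irradiation halts this cycle through p53 and its target p21, and the crypt is the part of the gut most sensitive to it.

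Values are counts per gene that the authors divided by the size factor of each library, from which the 1 they had added was subtracted, and are called scaled counts. Values for a group are listed in the order of replicates 1, 2 and 3. Reads in genes ranged from 6487053 to 19946586 per library. The lowest member, E2f1, had a scaled count of 25.5 in its lowest library, TBI replicate 2, where 1 read equals 1.698 scaled counts. Each gene was tested with limma on log2(scaled count + 1) in a single fit over the 9 libraries, with a threshold of 0.05 on the Benjamini-Hochberg adjusted p over all genes tested. Differences are on this log2 scale, with their standard error (SE), and folds are 2 to the power of the difference. The samples are whole tissue, so fewer dividing cells and less RNA of these genes per cell cannot be told apart.

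Per kb of exon, the most abundant members in TBI were Ccnd2 and Ccnd1, D-type cyclins that act in G1, at 531 ± 55.2 and 299 ± 68.4 scaled counts per kb (SD, n = 3). The lowest was E2f1, an activator of S phase genes, at 10.6 ± 2.29 scaled counts per kb. Between them, on the same scale, lay Pcna, the sliding clamp of replication, at 229 ± 9.47, Top2a, the topoisomerase that untangles chromosomes, at 172 ± 22.4, and Mki67, the proliferation antigen Ki-67, at 147 ± 27.8. Over the 9 libraries, the highest was 1.51-fold the lowest at the median over members, with a range of 1.18 for Pcna to 2.4 for Cdc20. For 41 of 45 members this ratio was under 2. It was not computed over all genes, so it is not shown to be particular to these members.

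No member passed the test in any of the 3 comparisons, with limma on scaled counts or with limma voom on the reads recovered from them. For 3pRNA + TBI against TBI, 0 of 45 members passed where 5.59% of all genes tested did, and 4 members (8.89%) had an unadjusted p under 0.05, where 22.2% of all genes did. The median log2 difference of the members was -0.11, against -0.02 for all genes tested. For blockade against 3pRNA + TBI, 0 of 45 passed where 1.42% of all genes did, and 12 (26.7%) had an unadjusted p under 0.05, all of them higher under blockade, where 10.6% of all genes had such a p and 5.13% were also higher. The median there was 0.17, against 0.00 for all genes. For blockade against TBI, 0 of 45 passed where 0.00% of all genes did, and 1 member (2.22%) and 1753 genes in all (12.3%) had an unadjusted p under 0.05. The median was 0.11, against -0.02. Each group enters 2 of the 3 comparisons, so their values are not independent of each other. The data bound the size of any change: the 95% interval of the difference lay within 2-fold either way for 43, 45 and 44 of the 45 members in the 3 comparisons, in the order above, and its median half-width was 0.31 on the log2 scale.

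**Figure D1:**
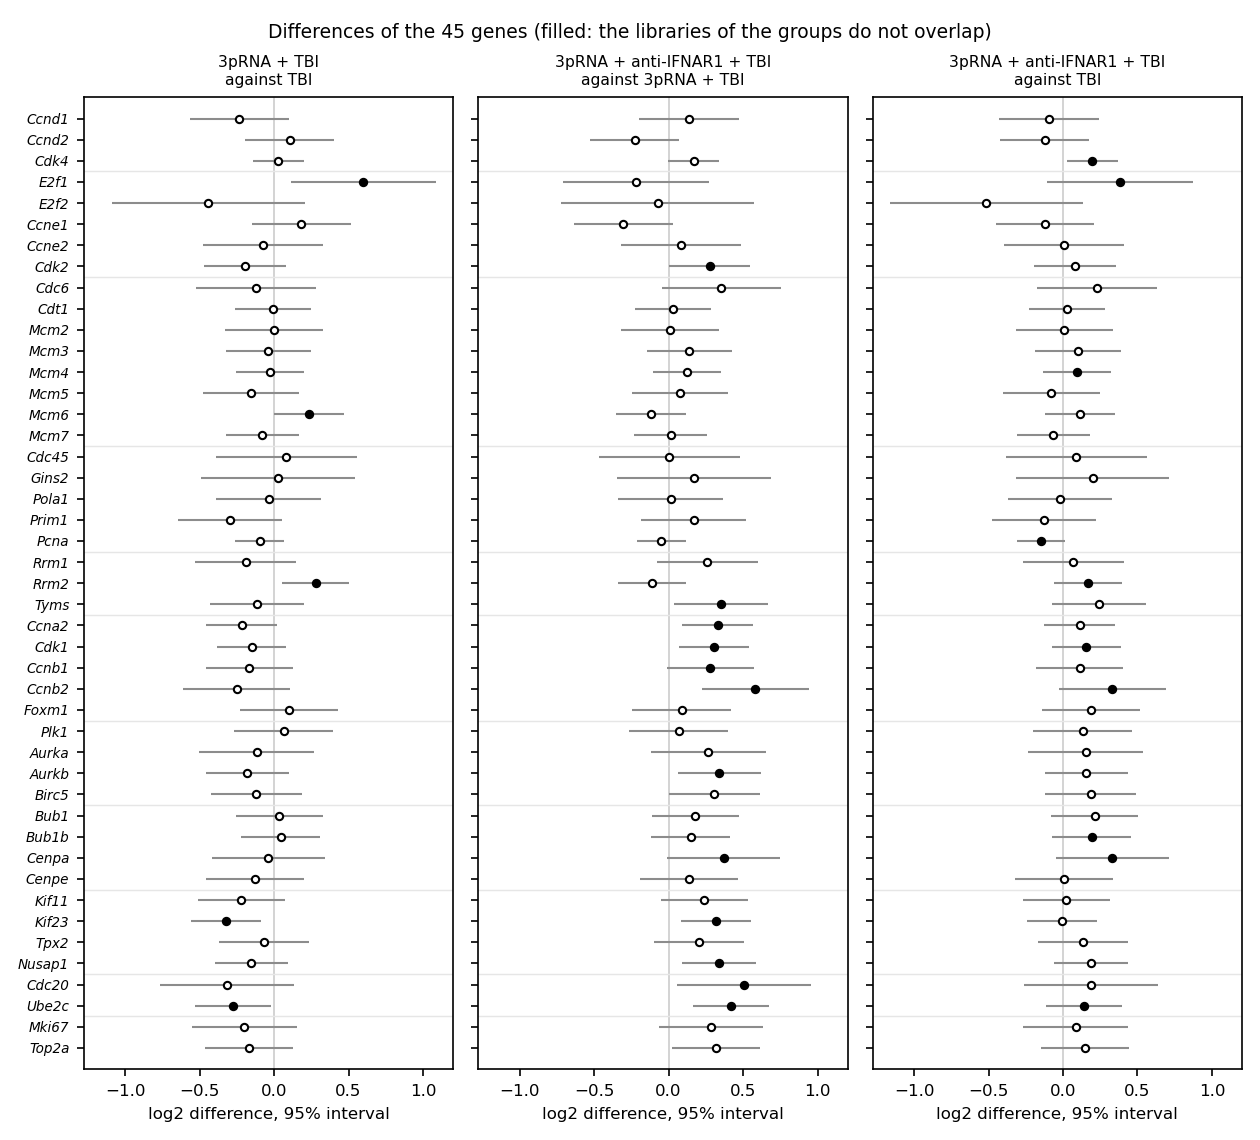
Log2 difference (x axis) of each of the 45 genes (rows, ordered by role, with lines between roles) in the 3 comparisons, with 95% intervals from limma. Filled points mark genes whose 2 groups of 3 libraries do not overlap, which is the case for 12 genes under blockade against 3pRNA + TBI, all of them to the right of 0.

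Groups that did not overlap were counted as a description beside the same count over all genes. Between 3pRNA + TBI and TBI, 3 of 45 members (6.67%) were higher in all 3pRNA + TBI libraries, where 12.2% of all genes were, and 2 members (4.44%) were lower, where 13.0% of all genes were. With libraries brought to equal totals, 3 members (6.67%) were higher, where 20.3% of all genes were, and none was lower, where 5.97% were. Under blockade against 3pRNA + TBI, 12 members (26.7%) were higher without overlap, where 8.25% of all genes were, and none was lower, where 7.25% were. This count depends on the scaling: with libraries brought to equal totals, 4 of 45 (8.89%) were higher without overlap, where 7.57% of all genes were. Under blockade against TBI, 9 members (20.0%) were higher, where 7.01% of all genes were, and 1 member (2.22%), Pcna, was lower, where 12.1% were. With equal totals 10 members (22.2%) were higher, where 14.3% of all genes were, and none was lower.

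The G1 cyclins, their kinase and the genes of S phase entry form a group of 8 members, and their median log2 differences were -0.02, 0.00 and -0.04 in the 3 comparisons. Ccnd1 stood at 1760, 1129 and 1333 in TBI, 1057, 1183 and 1305 in 3pRNA + TBI, and 1236, 1482 and 1186 in 3pRNA + anti-IFNAR1 + TBI. The TBI library of replicate 1 was the highest and the groups overlapped. The log2 difference was -0.23 ± 0.15 (SE, 0.851-fold, 95% interval 0.675 to 1.07, adjusted p = 0.40) for 3pRNA + TBI against TBI and 0.14 ± 0.15 (SE, 1.1-fold, 95% interval 0.872 to 1.39, adjusted p = 0.83) for blockade against 3pRNA + TBI. Cdk4 encodes the kinase partner of the D-type cyclins. Cdk4 stood at 633, 604 and 595 in TBI, 622, 593 and 654 in 3pRNA + TBI, and 721, 738 and 646 in 3pRNA + anti-IFNAR1 + TBI. All 3 blockade libraries lay above the TBI libraries, with a log2 difference of 0.20 ± 0.08 (SE, 1.15-fold, 95% interval 1.02 to 1.29, adjusted p = 0.34), the smallest p of any member in that comparison.

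Ccne1 encodes cyclin E1, which with CDK2 carries cells into S phase. Ccne1 stood at 86.6, 74.7 and 70.8 in TBI, 90.8, 75.8 and 97.7 in 3pRNA + TBI, and 69.4, 76.1 and 67.3 in 3pRNA + anti-IFNAR1 + TBI. The groups overlapped in every comparison, with log2 differences of 0.18 ± 0.15 (SE, 1.13-fold, 95% interval 0.902 to 1.43, adjusted p = 0.52) for 3pRNA + TBI against TBI and -0.30 ± 0.15 (SE, 0.811-fold, 95% interval 0.644 to 1.02, adjusted p = 0.54) for blockade against 3pRNA + TBI. Cdk2 stood at 189, 149 and 189 in TBI, 149.6, 140.3 and 169 in 3pRNA + TBI, and 195, 177 and 183 in 3pRNA + anti-IFNAR1 + TBI. Cdk2, the kinase of cyclin E, was higher in all blockade libraries than in any 3pRNA + TBI library, with a log2 difference of 0.28 ± 0.12 (SE, 1.21-fold, 95% interval 1 to 1.46, adjusted p = 0.46). Ccne2, the second cyclin E, and Ccnd2 were within 0.718 to 1.25 and 0.875 to 1.32 of their TBI level, as 95% intervals of the fold in 3pRNA + TBI.

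The 2 E2F activators among the members, E2f1 and E2f2, had differences of opposite sign against TBI. E2f1 stood at 39.3, 25.5 and 36 in TBI, 60.6, 41.4 and 51.6 in 3pRNA + TBI, and 45.9, 39.6 and 44.9 in 3pRNA + anti-IFNAR1 + TBI. Its value in TBI replicate 2 rests on few reads, since 1 read there equals 1.698 scaled counts. All 3pRNA + TBI libraries lay above all TBI libraries, and so did all blockade libraries, with log2 differences of 0.60 ± 0.22 (SE, 1.52-fold, 95% interval 1.08 to 2.13, adjusted p = 0.14) and 0.38 ± 0.22 (SE, 1.3-fold, 95% interval 0.929 to 1.83, adjusted p = 0.51). E2f2 stood at 445, 206 and 441 in TBI, 248, 199.5 and 325 in 3pRNA + TBI, and 204, 214 and 316 in 3pRNA + anti-IFNAR1 + TBI. E2f2 was high in TBI replicates 1 and 3 and at the level of the other groups in TBI replicate 2, so the TBI group overlapped both others. Its log2 difference was -0.44 ± 0.29 (SE, 0.736-fold, 95% interval 0.47 to 1.15, adjusted p = 0.42) for 3pRNA + TBI and -0.52 ± 0.29 (SE, 0.699-fold, 95% interval 0.446 to 1.1, adjusted p = 0.50) for blockade, each against TBI, the widest intervals among the members.

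The 8 members that license origins, Cdc6, Cdt1 and the 6 subunits of the MCM helicase, had differences close to 0. Their median log2 difference was -0.03 for 3pRNA + TBI against TBI, 0.05 for blockade against 3pRNA + TBI and 0.06 for blockade against TBI, and the range over the 8 genes was -0.155 to 0.23 in the first comparison. Mcm2 stood at 290.3, 255 and 321 in TBI, 261, 262 and 348 in 3pRNA + TBI, and 268, 262 and 345 in 3pRNA + anti-IFNAR1 + TBI. The 3 group means were 289 ± 33.3, 290.1 ± 50 and 292 ± 46.4 (SD, n = 3), and the 95% interval of the fold was 0.797 to 1.25 for 3pRNA + TBI against TBI. Mcm6 stood at 308, 267 and 322 in TBI, 341, 342 and 369 in 3pRNA + TBI, and 356, 329 and 286 in 3pRNA + anti-IFNAR1 + TBI. All 3pRNA + TBI libraries lay above the TBI libraries, with a log2 difference of 0.23 ± 0.11 (SE, 1.17-fold, 95% interval 0.998 to 1.38, adjusted p = 0.23). Mcm5, Mcm7, Mcm3 and Mcm4 had differences of -0.15, -0.08, -0.04 and -0.03 in that comparison, so that Mcm6 alone of the 8 licensing genes lay above 0. Cdc6, which recruits the helicase to origins, was at 1.28-fold, 95% interval 0.968 to 1.69, under blockade against 3pRNA + TBI, with overlapping groups, and Cdt1, its partner, was at 1.02-fold, 95% interval 0.857 to 1.22.

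Promoters of the members were searched for 3 motifs known from cell cycle genes, in windows from 250 bases before to 50 bases after the start site, on both strands: CCAAT (the NF-Y box), TTTGAA (the cell cycle homology region, CHR, bound by DREAM and MuvB), and TTTCCCGC, TTTCGCGC, TTTGCCGC or TTTGGCGC (E2F). RefSeq sequences of GRCm38.p6 were available for 36 of 45 members, in 38 windows, and this build is not the mm9 of the authors. CCAAT was in 78.9% of the member windows and in 37.4% of all 32851 windows. E2F letters were in 7 of 15 windows of replication members (46.7%), in 1 of 17 of mitosis members (5.88%) and in 2.26% of all windows. CHR letters were in 12 of 17 windows of mitosis members (70.6%), in 2 of 15 of replication members (13.3%) and in 17.9% of all windows. A match is a description of the letters and not evidence that a factor binds there. The 250 bases before the start of Mcm6 at chr1:128359706-128359955 (minus strand) and of Mcm5 at chr8:75109259-75109508 (plus strand) show the replication kind, with E2F matches (some of them overlapping) and CCAAT matches, or their complements, in capitals.
Mcm6: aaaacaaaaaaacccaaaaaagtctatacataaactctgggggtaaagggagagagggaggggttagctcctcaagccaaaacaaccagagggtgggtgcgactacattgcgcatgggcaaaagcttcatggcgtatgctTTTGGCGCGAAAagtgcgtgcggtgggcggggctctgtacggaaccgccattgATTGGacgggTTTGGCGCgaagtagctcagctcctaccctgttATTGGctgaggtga
Mcm5: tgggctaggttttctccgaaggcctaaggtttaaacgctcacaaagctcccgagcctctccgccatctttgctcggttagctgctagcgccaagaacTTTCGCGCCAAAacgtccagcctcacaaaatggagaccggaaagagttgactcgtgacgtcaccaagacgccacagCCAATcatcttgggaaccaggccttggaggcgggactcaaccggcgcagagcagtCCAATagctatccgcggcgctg

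The 5 members of the replication fork had median log2 differences of -0.035, 0.015 and -0.02. Pcna had the smallest spread of all members. Pcna stood at 569.8, 525 and 552 in TBI, 521, 481 and 537 in 3pRNA + TBI, and 493, 487 and 506 in 3pRNA + anti-IFNAR1 + TBI. All blockade libraries lay below all TBI libraries, with a log2 difference of -0.15 ± 0.07 (SE, 0.903-fold, 95% interval 0.806 to 1.01, adjusted p = 0.45), while for 3pRNA + TBI against TBI it was -0.10 ± 0.07 (SE, 0.934-fold, 95% interval 0.834 to 1.05, adjusted p = 0.48). Cdc45 and Gins2, parts of the active helicase, and Pola1, the catalytic subunit of the priming polymerase, had log2 differences of 0.08, 0.03 and -0.04 for 3pRNA + TBI against TBI. Prim1, the primase subunit of the same complex, was at 0.814-fold, 95% interval 0.638 to 1.04, in that comparison, with overlapping groups.

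Rrm2 encodes the regulated subunit of ribonucleotide reductase, which makes deoxynucleotides. Rrm2 stood at 214, 267 and 258 in TBI, 284, 292 and 317 in 3pRNA + TBI, and 268, 269 and 289.9 in 3pRNA + anti-IFNAR1 + TBI. All 3pRNA + TBI libraries lay above all TBI libraries, with a log2 difference of 0.28 ± 0.10 (SE, 1.21-fold, 95% interval 1.04 to 1.42, adjusted p = 0.14), and the blockade libraries also lay above the TBI libraries, at 0.17 ± 0.10 (SE, 1.12-fold, 95% interval 0.961 to 1.32, adjusted p = 0.53). Rrm1, the large subunit, was at -0.19 ± 0.15 (SE, 0.875-fold, 95% interval 0.692 to 1.11, adjusted p = 0.51) for 3pRNA + TBI against TBI, with overlapping groups. Tyms stood at 117, 129 and 158 in TBI, 129, 131 and 111 in 3pRNA + TBI, and 159, 141 and 176 in 3pRNA + anti-IFNAR1 + TBI. Tyms, which makes thymidylate, was higher in all blockade libraries than in any 3pRNA + TBI library, with a log2 difference of 0.35 ± 0.14 (SE, 1.28-fold, 95% interval 1.03 to 1.59, adjusted p = 0.39).

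**Figure D2:**
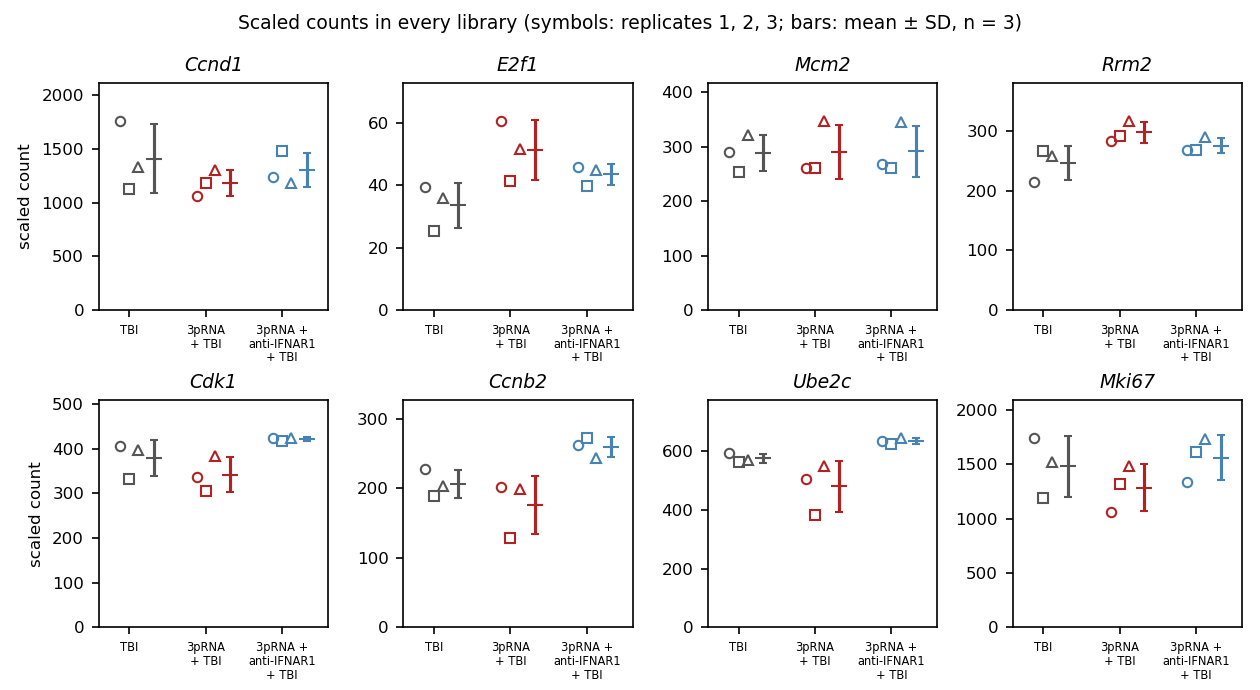
Scaled counts (y axis, from 0) of 8 members in every library, with open symbols for replicates 1, 2 and 3 and bars for the mean ± SD (n = 3 per group). Ube2c and Ccnb2 were higher in every library under blockade than in every 3pRNA + TBI library, and the groups of Mcm2 and Mki67 overlapped.

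The largest group is that of G2 and mitosis, with 21 members. These genes were read in the same libraries and can vary together, so counts over them are not repeat observations of mice. Their mean log2 level was 8.487, 8.199 and 8.418 in TBI, 8.185, 8.067 and 8.444 in 3pRNA + TBI, and 8.465, 8.558 and 8.535 under blockade. For 3pRNA + TBI against TBI, 17 of 21 had differences below 0, with a median of -0.15 on the log2 scale and none past the threshold. For blockade against 3pRNA + TBI, 21 of 21 lay above 0, with a median of 0.31 and a range of 0.07 to 0.58, 10 had an unadjusted p under 0.05 (47.6%, against 5.13% of all genes in that direction), and none passed after adjustment. For blockade against TBI, 20 of 21 lay above 0, with a median of 0.15. The size of the first of these medians and the signs of single genes in that comparison depend on the scaling. With equal totals 10 of all 45 members changed sign there, which left 22 above 0 and 23 below. Equal library totals moved the median of all genes from -0.02 to 0.09 for 3pRNA + TBI against TBI, and the median of the mitosis members from -0.15 to -0.04, so that relative to all genes it was -0.13 under both. With any 1 library left out it stayed below 0, from -0.24 without TBI replicate 2 and -0.239 without 3pRNA + TBI replicate 3 to -0.095 without 3pRNA + TBI replicate 2 and -0.075 without TBI replicate 1. Without both TBI replicates 1 and 3, a choice made after seeing the data that leaves the TBI arm with 1 library, the lowest of the 3 for these genes, it was 0.05. For blockade against 3pRNA + TBI the median of the mitosis members was 0.295 with equal totals and between 0.23 and 0.39 with any 1 library left out. In that comparison 10 of 21 were higher without overlap on scaled counts (47.6%, against 8.25% of all genes). With equal totals 3 were (14.3%, against 7.57%). For blockade against TBI, 5 were higher without overlap on scaled counts (23.8%, against 7.01%) and 6 with equal totals (28.6%, against 14.3%). Separations of single mitosis genes below are those of scaled counts, and most of those against 3pRNA + TBI did not hold with equal totals.

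Cyclin B2, cyclin B1 and their kinase CDK1 trigger entry into mitosis. Ccnb2 stood at 227, 188 and 203 in TBI, 201, 128 and 199 in 3pRNA + TBI, and 262, 272 and 243 in 3pRNA + anti-IFNAR1 + TBI. All blockade libraries lay above all others, with log2 differences of 0.58 ± 0.16 (SE, 1.5-fold, 95% interval 1.17 to 1.92, adjusted p = 0.17) against 3pRNA + TBI and 0.33 ± 0.16 (SE, 1.26-fold, 95% interval 0.982 to 1.61, adjusted p = 0.43) against TBI. Cdk1 stood at 406, 333 and 398 in TBI, 337, 306 and 383 in 3pRNA + TBI, and 423, 416 and 423 in 3pRNA + anti-IFNAR1 + TBI. The 3 blockade libraries were close together and lay above the other 6 on scaled counts, with log2 differences of 0.31 ± 0.10 (SE, 1.24-fold, 95% interval 1.05 to 1.45, adjusted p = 0.30) against 3pRNA + TBI and 0.16 ± 0.10 (SE, 1.11-fold, 95% interval 0.948 to 1.31, adjusted p = 0.57) against TBI. Ccnb1 stood at 214, 156 and 187 in TBI, 158, 153 and 181 in 3pRNA + TBI, and 192, 219 and 188 in 3pRNA + anti-IFNAR1 + TBI. Its blockade libraries lay above the 3pRNA + TBI libraries and overlapped those of TBI, with log2 differences of -0.17 ± 0.13 (SE, 0.891-fold, 95% interval 0.728 to 1.09, adjusted p = 0.50) for 3pRNA + TBI against TBI and 0.28 ± 0.13 (SE, 1.21-fold, 95% interval 0.992 to 1.49, adjusted p = 0.50) for blockade against 3pRNA + TBI.

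Cyclin A2, the product of Ccna2, acts from S phase into early mitosis. Ccna2 stood at 776, 698 and 651 in TBI, 582, 538 and 718 in 3pRNA + TBI, and 742, 772 and 778 in 3pRNA + anti-IFNAR1 + TBI. All blockade libraries lay above the 3pRNA + TBI libraries and overlapped those of TBI. Its log2 difference was -0.22 ± 0.11 (SE, 0.861-fold, 95% interval 0.729 to 1.02, adjusted p = 0.27) for 3pRNA + TBI against TBI and 0.33 ± 0.11 (SE, 1.26-fold, 95% interval 1.06 to 1.48, adjusted p = 0.27) for blockade against 3pRNA + TBI. Without 3pRNA + TBI replicate 3 the second of these was 0.45 with adjusted p = 0.049, the only member to pass under any alternative tried. Foxm1, the transcription factor of the mitotic wave, was at 0.10 ± 0.15 (SE, 1.07-fold, 95% interval 0.852 to 1.35, adjusted p = 0.75) for 3pRNA + TBI against TBI and 0.09 ± 0.15 (SE, 1.06-fold, 95% interval 0.845 to 1.34, adjusted p = 0.90) for blockade against 3pRNA + TBI, with overlapping groups.

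**Figure D3:**
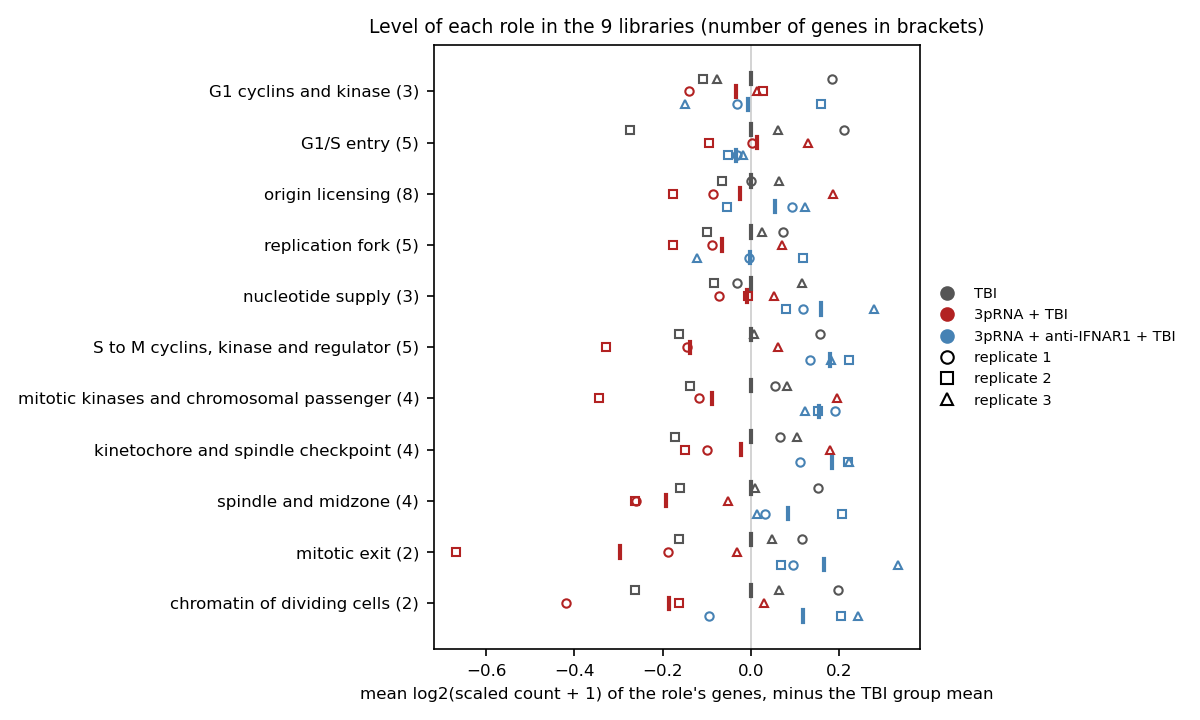
Mean log2(scaled count + 1) of the genes of each role in every library, minus the mean of the 3 TBI libraries (x axis), with symbols for replicates and thick ticks for group means. In the mitotic roles the blockade means lie to the right of the 3pRNA + TBI means, and 3pRNA + TBI replicate 3 lies to the right of the other 2 libraries of its group in each of these roles.

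The 2 genes of mitotic exit had a median of 0.46 for blockade against 3pRNA + TBI, the largest of the 11 roles. Ube2c encodes the ubiquitin-conjugating enzyme of the anaphase-promoting complex. Ube2c stood at 593, 562 and 568 in TBI, 506, 384 and 549.7 in 3pRNA + TBI, and 635, 622 and 644 in 3pRNA + anti-IFNAR1 + TBI. On scaled counts, blockade libraries were highest, TBI libraries next and 3pRNA + TBI libraries lowest, with no overlap between any pair of groups. With equal totals the 3pRNA + TBI libraries overlapped those of TBI. The log2 difference was -0.28 ± 0.12 (SE, 0.826-fold, 95% interval 0.692 to 0.986, adjusted p = 0.19) for 3pRNA + TBI against TBI, 0.42 ± 0.12 (SE, 1.34-fold, 95% interval 1.12 to 1.59, adjusted p = 0.16) for blockade against 3pRNA + TBI and 0.14 ± 0.12 (SE, 1.1-fold, 95% interval 0.924 to 1.32, adjusted p = 0.65) for blockade against TBI. Cdc20 stood at 413, 296 and 392 in TBI, 318, 214 and 363 in 3pRNA + TBI, and 375, 368 and 514 in 3pRNA + anti-IFNAR1 + TBI. Cdc20, the activator of the same complex, had its lowest value in 3pRNA + TBI replicate 2 and its highest in blockade replicate 3, and these groups did not overlap, with a log2 difference of 0.51 ± 0.20 (SE, 1.42-fold, 95% interval 1.04 to 1.94, adjusted p = 0.39).

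Promoters of mitosis members shown are those of Ccnb2 at chr9:70421555-70421804 (minus strand), Ube2c at chr2:164769679-164769928 (plus strand) and Cdk1 at chr10:69352913-69353162 (minus strand). CHR and CCAAT letters or their complements are in capitals, and in Cdk1 also an E2F match. The CHR letters begin 167 bases before the start in Ccnb2, upstream of all its CCAAT letters. In Ube2c they begin 29 bases before the start, and in Cdk1 71 and 15 bases before it. These 3 genes were among the 6 members with the smallest p for blockade against 3pRNA + TBI, and the other promoters of the 6 are not shown. Of those, Kif23 had CHR and CCAAT letters, Nusap1 had none of the 3 motifs, and Ccna2 had no sequence available. The bases are the 250 before the RefSeq start in GRCm38.p6, read in the direction of transcription.
Ccnb2: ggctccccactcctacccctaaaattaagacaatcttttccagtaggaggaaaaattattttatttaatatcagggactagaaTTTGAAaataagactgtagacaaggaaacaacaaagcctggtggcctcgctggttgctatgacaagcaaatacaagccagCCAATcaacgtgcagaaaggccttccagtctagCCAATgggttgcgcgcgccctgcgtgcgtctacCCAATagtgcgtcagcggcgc
Ube2c: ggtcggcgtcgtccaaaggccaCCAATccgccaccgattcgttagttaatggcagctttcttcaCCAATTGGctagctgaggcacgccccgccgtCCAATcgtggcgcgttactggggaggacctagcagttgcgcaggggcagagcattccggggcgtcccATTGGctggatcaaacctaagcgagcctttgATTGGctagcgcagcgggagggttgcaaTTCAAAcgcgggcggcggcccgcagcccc
Cdk1: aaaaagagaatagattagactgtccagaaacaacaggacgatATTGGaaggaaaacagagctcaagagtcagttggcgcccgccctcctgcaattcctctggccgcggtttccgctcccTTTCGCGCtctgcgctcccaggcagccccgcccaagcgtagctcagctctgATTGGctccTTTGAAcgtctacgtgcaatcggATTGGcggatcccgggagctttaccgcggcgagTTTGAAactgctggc

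On scaled counts, all 4 spindle genes lay below 0 for 3pRNA + TBI against TBI and above 0 for blockade against 3pRNA + TBI. Their medians were -0.19 and 0.28. Kif23, a kinesin of the spindle midzone and of cytokinesis, had the smallest p of any member for 3pRNA + TBI against TBI. Kif23 stood at 352, 319 and 314 in TBI, 257, 229 and 304 in 3pRNA + TBI, and 326, 328 and 326 in 3pRNA + anti-IFNAR1 + TBI. All 3pRNA + TBI libraries lay below the other 6 on scaled counts, with log2 differences of -0.32 ± 0.11 (SE, 0.799-fold, 95% interval 0.678 to 0.94, adjusted p = 0.098) against TBI and, in the blockade libraries compared with them, 0.32 ± 0.11 (SE, 1.25-fold, 95% interval 1.06 to 1.47, adjusted p = 0.28). With equal totals the 3pRNA + TBI libraries of Kif23 overlapped those of TBI. Nusap1 stood at 358, 284 and 297 in TBI, 284, 264 and 293 in 3pRNA + TBI, and 353, 393 and 321 in 3pRNA + anti-IFNAR1 + TBI. Nusap1, which bundles spindle microtubules, was at 0.34 ± 0.11 (SE, 1.27-fold, 95% interval 1.07 to 1.5, adjusted p = 0.27) in the second of these comparisons, without overlap. Kif11, the kinesin that separates the spindle poles, was at -0.22 ± 0.13 (SE, 0.859-fold, 95% interval 0.701 to 1.05, adjusted p = 0.37) and 0.24 ± 0.13 (SE, 1.18-fold, 95% interval 0.964 to 1.45, adjusted p = 0.60), and Tpx2, an activator of Aurora A, was at -0.07 ± 0.14 (SE, 0.952-fold, 95% interval 0.772 to 1.17, adjusted p = 0.81) and 0.21 ± 0.14 (SE, 1.15-fold, 95% interval 0.936 to 1.42, adjusted p = 0.68), with overlapping groups in both.

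Among the mitotic kinases, Aurora B is the enzyme of the chromosomal passenger complex. Aurkb stood at 192, 172 and 220.4 in TBI, 160.3, 157 and 198 in 3pRNA + TBI, and 215, 228 and 205 in 3pRNA + anti-IFNAR1 + TBI. Aurkb was higher without overlap under blockade than in 3pRNA + TBI, with a log2 difference of 0.34 ± 0.13 (SE, 1.26-fold, 95% interval 1.04 to 1.53, adjusted p = 0.35). Birc5 (survivin), of the same complex, was at 0.31 ± 0.14 (SE, 1.24-fold, 95% interval 1 to 1.53, adjusted p = 0.47), with overlapping groups. Aurka and Plk1, kinases of the spindle poles, were at 0.27 ± 0.17 (SE, 1.2-fold, 95% interval 0.922 to 1.57, adjusted p = 0.67) and 0.07 ± 0.15 (SE, 1.05-fold, 95% interval 0.832 to 1.32, adjusted p = 0.93). Cenpa stood at 227, 188 and 211 in TBI, 224, 147 and 252 in 3pRNA + TBI, and 259, 269 and 259 in 3pRNA + anti-IFNAR1 + TBI. Cenpa, the histone H3 variant of centromeres, was close to the same value in all blockade libraries, above every library of the other groups. Its log2 difference was 0.37 ± 0.17 (SE, 1.29-fold, 95% interval 0.994 to 1.68, adjusted p = 0.49) against 3pRNA + TBI and 0.33 ± 0.17 (SE, 1.26-fold, 95% interval 0.967 to 1.64, adjusted p = 0.46) against TBI. Bub1 and Bub1b, checkpoint kinases, and Cenpe, a kinetochore kinesin, were at 1.13-fold, 95% interval 0.925 to 1.39, at 1.11-fold, 95% interval 0.923 to 1.33, and at 1.1-fold, 95% interval 0.875 to 1.38, under blockade against 3pRNA + TBI, with overlapping groups.

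Mki67 and Top2a, the usual markers of dividing cells, overlapped between all groups. Mki67 stood at 1742, 1187 and 1520 in TBI, 1061, 1319 and 1482 in 3pRNA + TBI, and 1337, 1615 and 1738 in 3pRNA + anti-IFNAR1 + TBI. Replicate 1 of TBI was the highest library and replicate 1 of 3pRNA + TBI the lowest. The log2 difference was -0.20 ± 0.16 (SE, 0.871-fold, 95% interval 0.682 to 1.11, adjusted p = 0.51) for 3pRNA + TBI against TBI and 0.28 ± 0.16 (SE, 1.22-fold, 95% interval 0.955 to 1.56, adjusted p = 0.60) for blockade against 3pRNA + TBI. Top2a stood at 1701, 1319 and 1624 in TBI, 1188, 1361 and 1583 in 3pRNA + TBI, and 1475, 1855 and 1816 in 3pRNA + anti-IFNAR1 + TBI. Its log2 differences were -0.17 ± 0.13 (SE, 0.889-fold, 95% interval 0.725 to 1.09, adjusted p = 0.50) and 0.32 ± 0.13 (SE, 1.25-fold, 95% interval 1.02 to 1.53, adjusted p = 0.42) in the same comparisons.

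The level of mitosis genes was set against that of replication genes within each library, a quantity that depends little on how libraries are scaled. The mean log2 level of the 21 mitosis members minus that of the 16 members for licensing, fork and nucleotides was 0.70, 0.505 and 0.58 in TBI, 0.495, 0.44 and 0.545 in 3pRNA + TBI, and 0.62, 0.76 and 0.69 under blockade. All blockade libraries lay above all 3pRNA + TBI libraries, and the TBI libraries overlapped both. The group means were 0.594 ± 0.096, 0.493 ± 0.054 and 0.689 ± 0.068 (SD, n = 3). The same quantity over genes that are no members, 53 other mitosis genes and 41 other licensing and replication genes, was 0.05, -0.07 and 0.04 in TBI, -0.175, -0.168 and -0.125 in 3pRNA + TBI, and 0.02, 0.10 and 0.02 under blockade. Here all 3pRNA + TBI libraries lay below the other 6. Members and companion genes were read from the same libraries, so the second set is no independent sample of mice. Both sets were also chosen with earlier results of these data known.

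**Figure D4:**
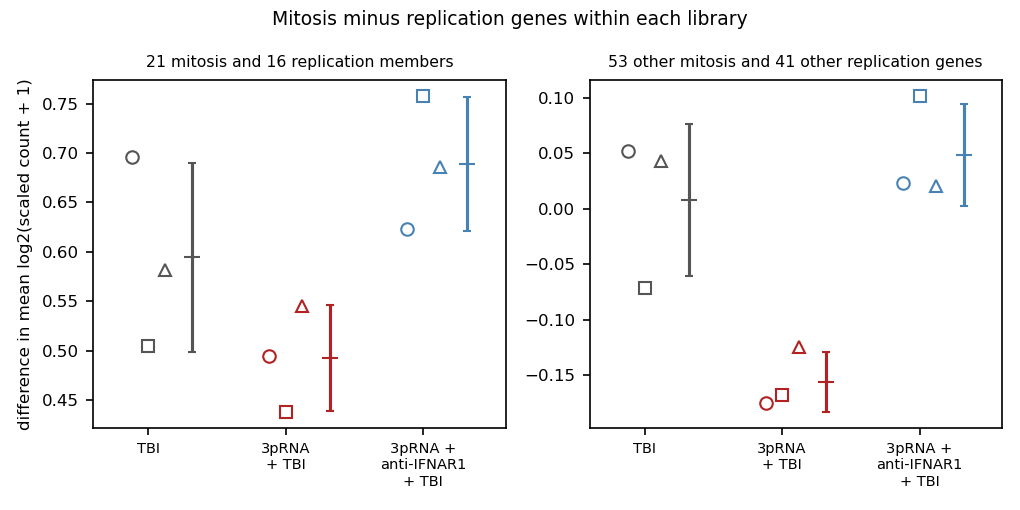
Mean log2(scaled count + 1) of mitosis genes minus that of replication genes in each library (y axis, not starting at 0), for the members (left) and for the companion lists (right), with replicate symbols and mean ± SD (n = 3). The 3pRNA + TBI libraries lie at 0.438 to 0.545 on the left and below 0 on the right.

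The companion lists gave 3 calls in all. They were chosen with earlier results of these data known and read in the same libraries, so they are no independent check of the members. Genes of a list can also vary together, so counts over them are not repeat observations of mice. Of 53 other mitosis genes tested (54 listed), 1 fell and 0 rose for 3pRNA + TBI against TBI, with a median of -0.15, and 1 rose and 0 fell for blockade against 3pRNA + TBI, with a median of 0.33. Of all genes tested, 5.59% and 1.42% passed in these comparisons. In the first comparison 7 of 53 (13.2%) had an unadjusted p under 0.05, all lower, where 22.2% of all genes had such a p and 11.1% were also lower. In the second comparison 26 of 53 had an unadjusted p under 0.05, all higher (49.1%, against 5.13% of all genes), and 21 were higher without overlap (39.6%, against 8.25%). With equal totals 17 were (32.1%, against 7.57%), and the first median was -0.04. With any 1 library left out that median ran from -0.227 to -0.085. Mad2l1, the spindle checkpoint protein MAD2, fell from 268 ± 24.8 in TBI to 183 ± 24.4 in 3pRNA + TBI (SD, n = 3), a log2 difference of -0.55 ± 0.11 (SE, 0.682-fold, 95% interval 0.573 to 0.812, adjusted p = 0.026), and stood at 259 ± 6.41 under blockade (adjusted p = 0.066 against 3pRNA + TBI). Pbk, a mitotic kinase, rose from 134 ± 7.28 in 3pRNA + TBI to 198 ± 5.1 under blockade, a log2 difference of 0.57 ± 0.11 (SE, 1.48-fold, 95% interval 1.25 to 1.75, adjusted p = 0.033). Ect2, which directs cytokinesis, was at -0.35 ± 0.10 (SE, 0.783-fold, 95% interval 0.673 to 0.911, adjusted p = 0.062) for 3pRNA + TBI against TBI.

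Of 33 inhibitors and checkpoint genes, 1 fell for 3pRNA + TBI against TBI, where 5.59% of all genes passed, and none passed in the other comparisons. In the first comparison 8 were lower and 1 higher with an unadjusted p under 0.05, where 11.1% of all genes were lower and 11.1% higher with such a p. On scaled counts 9 were lower and 2 higher without overlap, where 13.0% and 12.2% of all genes were. The called gene, Cdc25c, encodes a phosphatase that activates CDK1, and it fell from 49.7 ± 8.24 to 29.2 ± 2.18 (SD, n = 3), a log2 difference of -0.74 ± 0.19 (SE, 0.6-fold, 95% interval 0.449 to 0.8, adjusted p = 0.048). Under blockade against 3pRNA + TBI it was at 0.68 ± 0.19 (SE, 1.6-fold, 95% interval 1.2 to 2.14, adjusted p = 0.16). Wee1, the kinase that opposes CDC25C, was at -0.43 ± 0.15 (SE, 0.743-fold, 95% interval 0.591 to 0.934, adjusted p = 0.12) and 0.66 ± 0.15 (SE, 1.58-fold, 95% interval 1.25 to 1.98, adjusted p = 0.069) in the same comparisons, so its values had the same signs as those of Cdc25c. Cdkn1a, which encodes p21, was abundant in all groups, with 5561 ± 418 in TBI and 4993 ± 297 under blockade, a log2 difference of -0.15 ± 0.08 (SE, 0.899-fold, 95% interval 0.792 to 1.02, adjusted p = 0.48). In 3pRNA + TBI it stood at 4953, 5004 and 4821, below the TBI libraries at 5556, 5981 and 5145 on scaled counts. None of 41 other licensing and replication genes passed in any comparison with limma or with limma voom, with 1, 5 and 3 of them at an unadjusted p under 0.05, and their medians were -0.004, 0.12 and 0.11. The 3 differences kept their direction with any 1 library left out, from -0.66 to -0.48 for Mad2l1, from 0.52 to 0.60 for Pbk and from -0.855 to -0.62 for Cdc25c, while the calls did not all hold. That of Mad2l1 was lost without TBI replicate 1, TBI replicate 3 or 3pRNA + TBI replicate 1 (limma adjusted p up to 0.089) and held in 6 of 11 other alternatives. That of Pbk was lost without any 1 library other than TBI replicate 1 or 2 (adjusted p up to 0.15) and held in 9 of 11. That of Cdc25c was lost without any 1 of the 9 libraries (adjusted p from 0.062 to 0.16) and held in 3 of 10.

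Some markers of other cells differed between groups or between single libraries of a group, and their part in the values above was not tested. Of 11 smooth muscle markers, 6 rose for 3pRNA + TBI against TBI, where 494 of all 14199 genes tested rose and 300 fell. Their summed scaled counts were 5789, 18650 and 5630 in TBI, 21990 to 28490 in 3pRNA + TBI and 16050 to 26750 under blockade. TBI replicates 1 and 3 thus held less smooth muscle RNA than the other 7 libraries. Of 9 enteric neuron and glia markers tested (10 listed), 6 rose in that comparison (sums 155.7 to 309 in TBI, 416 to 495 in 3pRNA + TBI and 291 to 473 under blockade). Of 8 adipocyte markers 7 rose (512.8 to 764, 1245 to 2626 and 601.5 to 2451), with Adipoq, Plin1, Cfd, Lep and Retn at 0 in all TBI libraries. Of 8 T cell markers 3 fell (479 to 711, 288 to 472 and 386 to 590.2). Of 14 intestinal stem and crypt markers 1 rose, Smoc2, and their sums overlapped, with 7313 to 8210 in TBI, 6093 to 7638 in 3pRNA + TBI and 6781 to 8330 under blockade. None of 10 enterocyte markers tested (12 listed) passed, with sums of 389200 to 505600, 317500 to 462700 and 365200 to 437300, nor did any of 8 B cell and plasma cell markers tested (9 listed), with sums of 6563 to 7995, 5776 to 8693 and 6521 to 8662. Limma called no gene of these 7 lists for blockade against 3pRNA + TBI, where smooth muscle, crypt and enterocyte sums overlapped between the groups, and the numbers with an unadjusted p under 0.05 were 0 for muscle, 0 for neuron and glia, 0 for adipocyte, 3 for T cell, 2 for crypt, 3 for enterocyte and 0 for B cell markers. All of these were higher under blockade, where 5.13% of all genes were higher with such a p. Of 8 T cell markers, 7 lay above 0 and 1 below, with a median log2 difference of 0.48, and 4 were higher without overlap, where 8.25% of all genes were. The medians were 0.21 for enterocyte, 0.07 for crypt, -0.08 for B cell, -0.11 for muscle, -0.28 for neuron and glia and -1.68 for adipocyte markers. For blockade against TBI limma called no gene. An unadjusted p under 0.05 was found there for 10 of 11 muscle, 6 of 9 neuron and glia, 7 of 8 adipocyte and 4 of 14 crypt markers. All of them were higher under blockade, where 6.35% of all genes were, and the number was 0 for T cell, enterocyte and B cell markers.

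Reads of 15 members can overlap those of another gene at an exon in the GRCm38 annotation, 13 of them with a gene on the other strand, and the kit named in the labels does not mark strand. Among them are Ube2c, Cdc20, Ccna2, Nusap1, Cdk2 and Cdk4. Pcna, Tyms, Ccnb1 and Ccnb2 have pseudogenes that carry their names, so part of their reads may have been assigned elsewhere.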

How the data were processed

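Small intestine RNA of 9 mice (3 per group) was sequenced from poly(A) libraries. The deposited signal values are scaled counts: per the submitters' processing notes and the study's methods, the authors aligned reads with STAR in 2 passes to mm9, counted them per gene with HTSeq, divided the counts by DESeq size factors and added 1. Versions, the gene models and the strand setting were not given in the sources used here, and the kit named in the labels does not mark strand. After the 1 was subtracted, all values were whole multiples of the value of 1 read (tolerance 0.02). The deposited tables of the authors' comparisons, which hold adjusted p, log2 ratio and group means of passing genes, were not used. No column of sample values was left out (0 columns).

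Genes were filtered at a minimum mean scaled count of 10 and analysed with limma 3.58.1 in R 4.3.3 on log2(value + 1), 3 groups in 1 fit, with a variance trend and Benjamini-Hochberg adjustment over 14199 genes at 0.05. A fold on this scale understates the change of low genes. An exact permutation test of 3 against 3 cannot go below p = 0.10 and was not used. The procedure was tested on simulated data. Labels do not say how replicates were separated beyond their titles, so p-values measure the spread between these samples. Depth limits precision most in the library with 6487053 reads in genes.

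The members and lists were chosen with earlier results of these data known. All members may be named, and given in full are up to 6 with the smallest p per comparison and 8 fixed examples (Mki67, Top2a, Ccnb1, Cdk1, Pcna, Mcm2, Ccnd1, Ccne1). Further members were given in full after their values were seen, where their groups did not overlap. Alternatives were pseudocounts of 0.5 and 5, no filter and a minimum of 50, equal library totals, no variance trend, robust moderation, only the groups compared, a replicate block, limma voom on whole reads, and each library left out. Promoter sequences are from RefSeq on GRCm38.p6. The labels and the methods differ on the route of the antibody.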

Additional observations from a re-analysis of the deposited data

How the results depend on the processing

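With any 1 library left out, the count of members called ran from 0 to 0 for 3pRNA + TBI against TBI, from 0 to 1 for blockade against 3pRNA + TBI and from 0 to 0 for blockade against TBI. The single call was Ccna2, without 3pRNA + TBI replicate 3 (log2 difference 0.45, limma adjusted p = 0.049). The median log2 difference of the members ran from -0.192 to -0.04, from 0.139 to 0.255 and from 0.036 to 0.145 in the same fits. The 11 other alternatives called 0 members in each comparison, and their medians ran from -0.115 to 0.052, from 0.159 to 0.186 and from 0.112 to 0.22. The value of 0.052 came without TBI replicates 1 and 3, a choice made after seeing the data that leaves a single TBI library, assumed to vary like the other groups. The cause was not tested. Deviations from group means correlated from -0.193 to 0.345 between same-numbered libraries (5 of 9 pairs over 0.1, among them all 3 of replicate 3) and from -0.42 to 0.23 between others, and 5 of 9 libraries correlated best with their own number in both other groups. The labels give no shared origin, so the numbers were not taken as pairs. With the replicate block, 0 members were called in each comparison, with medians of -0.113, 0.169 and 0.113 and a smallest adjusted p of 0.076 (E2f1, 3pRNA + TBI against TBI), and 1223, 281 and 1 genes were called in all. Over all genes, the counts called with other alternatives ran from 101 to 1223 (794 as reported), from 103 to 281 (201) and from 0 to 1 (0), and with 1 library left out from 139 to 918, from 91 to 222 and from 0 to 359. The count of 359 came without TBI replicate 2. For 3pRNA + TBI against TBI, 494 of the 794 genes were higher and 300 lower, and with limma voom 846 were higher and 201 lower.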

Other observations

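E2f2, an activator of S phase genes, was singled out after its values were seen: 444.6, 205.5 and 440.8 scaled counts in TBI, 247.6, 199.5 and 324.8 in 3pRNA + TBI, and 203.5, 213.7 and 315.8 under blockade. Over the 9 libraries, the genes most like it were Cyp4a29 (Pearson's r = 0.972), Muc4 (0.952) and Mfsd2a (0.935), and the most opposite were Bnip3 (-0.947) and Me3 (-0.933), of 4029 genes searched. These are descriptions over the same 9 libraries, with no test.

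With 3 libraries per group the 95% interval of the median member reached 0.31 to either side of its log2 difference, before any adjustment for the number of genes. Neither the cell types that carry these transcripts nor the position of cells in the cycle was measured.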
